A study of Mus musculus with 12 samples.

Results

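The clustered protocadherins are a family of cell-surface adhesion proteins encoded by the Pcdha, Pcdhb and Pcdhg gene clusters, which lie one after the other on mouse chromosome 18. Members were the protein-coding genes of the table whose symbols begin with Pcdha, Pcdhb or Pcdhg followed by the number or C-type letter of an isoform, and 57 of 51912 genes qualified. A further symbol of this form, Pcdhgb8, is annotated as a polymorphic pseudogene and was left out. The levels come from RNA sequencing of primary cortical neurons, dissociated from the cortex of C57BL/6J mouse embryos at E17.5 after the meninges had been taken off. The 4 groups, of 3 libraries each, were neurons kept for 48 h with 1 µg/mL erinacine S, neurons kept for 48 h with DMSO, neurons kept for 16 h with 1 µg/mL erinacine S and neurons kept for 16 h with DMSO. Erinacine S is a compound of the mushroom Hericium erinaceus, DMSO is its solvent control, and all groups share the plating in serum and the maintenance medium with B27 supplement. The 3 libraries of a group are described as independent repeats, without the litters or dishes they stand for, so that p-values measure the spread between libraries, which may be technical.

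Each neuron switches on its own small set of these genes. In the alpha and gamma clusters a variable exon, chosen through its own promoter with the help of the DNA-binding protein CTCF and the cohesin ring, is spliced to constant exons that all members of that cluster share, whereas each beta gene is essentially a single exon. The proteins bind copies of themselves on opposing membranes, which lets the branches of a neuron recognise and avoid each other, and they also act in dendrite growth, synapse formation and neuronal survival. The last genes of the alpha and gamma clusters, called C-type, are used more uniformly among neurons than the others.

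On GRCm38 the 14 alpha members lie between positions 36930184 and 37187661, the 22 beta members between 37264938 and 37524479, and the 21 gamma members between 37661793 and 37841873, all on the plus strand. The 21 gamma members are 12 gamma A, 6 gamma B and 3 gamma C genes, and the alpha cluster holds Pcdha1 to Pcdha12 and the C-type genes Pcdhac1 and Pcdhac2. The deposited table names 2 rows Pcdha11, of which the one with identifier ENSMUSG00000007440 carries the NCBI gene ID that RefSeq calls Pcdha10, the name used here. In GENCODE M21 all 14 alpha members share 3 constant exons of 59, 89 and 2716 bases, and all 21 gamma members share 3 constant exons of 59, 89 and 1971 bases. These shared bases are 38.0% to 54.9% of the exon sequence of an alpha member and, with 2 smaller overlaps between neighbours, 27.8% to 66.8% of that of a gamma member. Among the beta members only Pcdhb21 and Pcdhb22 overlap, by 455 bases. Reads from constant exons carry no mark of the member they came from, so how the authors' software divided them among the members is uncertain, and members of the alpha or of the gamma cluster are not independent measurements.

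Expression was deposited as TPM, transcript abundance per length of transcript scaled to the same total in every library, which keeps no read depth; the precision given is therefore the spread between libraries. The 8 neuronal markers, among them Tubb3, Map2 and Dcx, all averaged over 1 TPM. At 48 h they summed to between 6344 and 6905 TPM with erinacine S, against between 6367 and 6640 TPM in DMSO. At 16 h they summed to between 4487 and 5195 TPM with erinacine S, against between 4277 and 4920 TPM in DMSO. Of 8 vascular and meningeal markers, 7 averaged under 1 TPM. One library stood apart, erinacine S 48 h replicate 1. Its summed astrocyte markers were 49.3 TPM, against 109 to 132 in the other 5 libraries of 48 h. Its radial glia and progenitor markers summed to 244 TPM, against 719 to 794, its oligodendrocyte lineage markers to 54.2 TPM, against 165 to 220, and its inhibitory interneuron markers to 1531 TPM, against 642 to 1122. Of this last sum, Sst made up 1019 TPM. Gad1, Gad2 and Slc32a1 were also higher there than in those 5 libraries. Dlx1, at 111 TPM, was lower than in all of them, and Dlx2, at 79.4 TPM, was within their range. In bulk RNA, fewer cells of a type and less RNA per cell cannot be told apart. For the counts of members called between 48 h and 16 h, the cluster sums and most main members, values without this library are given as well. Other values with erinacine S at 48 h include it unless stated. Among them are the medians between 48 h and 16 h, the counts of members with groups apart and the counts for gene lists.

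All 57 members were listed above 0 in every library, over a wide range of levels. Pcdhgc3, a C-type member that promotes dendrite branching in mouse cortical neurons, was the most abundant by far, with a lowest level of 143, a median of 168 and a highest of 197 TPM over the 12 libraries. It was followed by Pcdhga11 with a median of 40.1 TPM (29.3 to 61.5), Pcdhac2 with 36.5 TPM (26.1 to 67.7), Pcdhgb6 with 33.4 TPM (27.9 to 44.5) and Pcdhga12 with 31.6 TPM (24.9 to 45.9). The ranges of these 4 overlap over the 12 libraries. Within every library Pcdhga11 was above Pcdhga12, while the other pairs among the 4 changed order between libraries. The lowest Pcdhgc3 value is above all values of these 4. The highest among the other subfamilies were Pcdha5 and Pcdha12, with means over the 12 libraries of 12.7 and 11.96 TPM, and Pcdhb7 and Pcdhb17, with 13.9 and 13.0 TPM. Typical levels differed between clusters. The median member had 10.97 TPM in the alpha cluster, 4.67 TPM in the beta cluster and 19.5 TPM in the gamma cluster. At the low end stood Pcdha8 with a mean of 0.744 TPM and Pcdhb1 with 0.0907 TPM, both under the minimum mean of 1 TPM set for testing, so 55 members were tested.

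**Figure D1:**
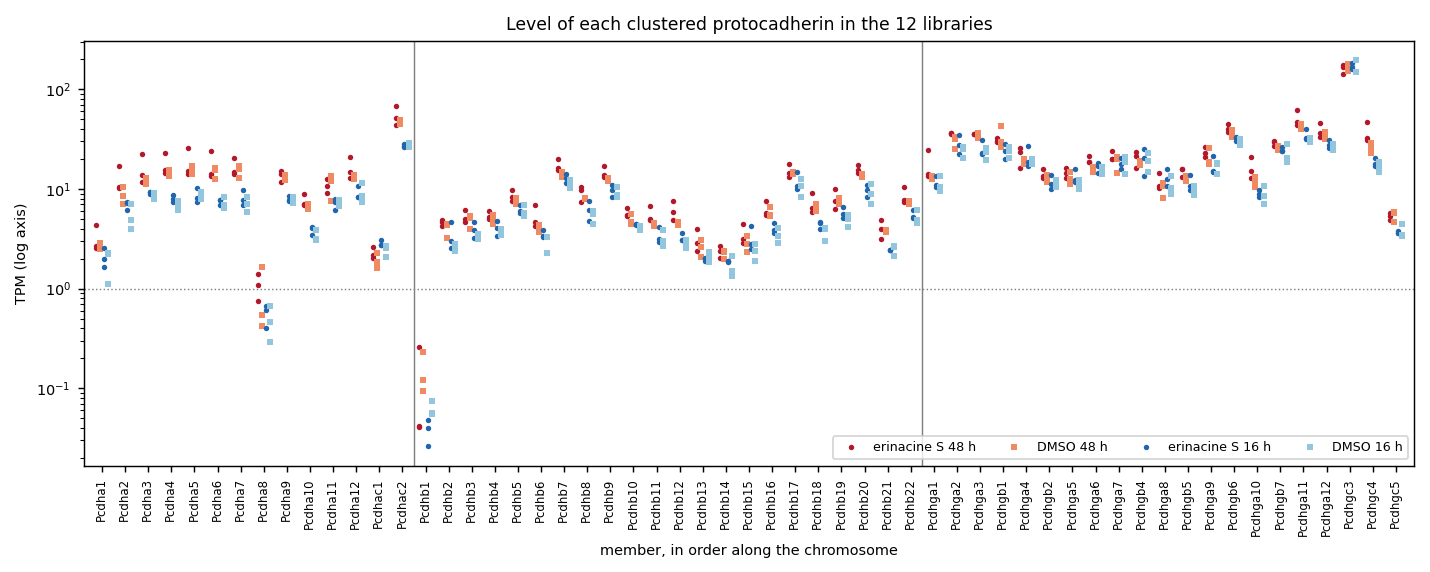
Level in TPM (log axis) of each of the 57 clustered protocadherins in the 12 libraries, in their order along the chromosome, with 1 point per library coloured by group. Vertical lines separate the alpha, beta and gamma clusters and the dotted line marks 1 TPM; Pcdhgc3 sits between 143 and 197 TPM above all others, and Pcdha8 and Pcdhb1 average under 1 TPM.

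The first comparison asked how these genes differed between 48 h and 16 h in culture. With erinacine S, 31 of the 55 members tested were higher at 48 h and none was lower, whereas 30.6% of all 15623 genes tested were called, 15.1% higher and 15.5% lower (limma on log2(TPM + 1), Benjamini-Hochberg adjusted p under 0.05, the rule for every call here). The log2 fold change was positive in 52 of the 55 members, against 46.8% of all genes, with a median of 0.44 for the members and -0.03 for all genes. In DMSO, whose libraries are separate from those with erinacine S, 26 of the 55 were higher at 48 h and none was lower, against 32.7% of all genes called, 16.1% higher and 16.6% lower. There too 52 were positive, against 46.7% of all genes, with a median of 0.41 for the members and -0.03 for all genes. With erinacine S the 3 libraries of 48 h lay above the 3 of 16 h for 38 members, against 21.2% of all genes, and below them for 1, against 23.7% (44.9% either way). In DMSO they lay above for 37 members, against 24.1% of all genes, and below for none, against 26.4% (50.5% either way).

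The changes differed in size along the family. In the alpha cluster, 10 of the 11 members of Pcdha1 to Pcdha12 that were tested rose with erinacine S, with a median log2 fold change of 0.74, and 8 of 11 rose in DMSO, with a median of 0.69. Of the 21 beta members tested, 12 rose with erinacine S (median 0.44) and 11 in DMSO (median 0.42). Of the 12 gamma A members, 4 rose with erinacine S (median 0.40) and 3 in DMSO (median 0.25). Of the 6 gamma B members, 2 rose with erinacine S (median 0.29) and 1 in DMSO (median 0.27). Of all genes, 15.1% were higher with erinacine S and 16.1% in DMSO. The gamma B share in DMSO, 16.7%, was near the latter. Without erinacine S 48 h replicate 1, 20 of the 31 calls with erinacine S remained. In the alpha cluster, Pcdha2 and Pcdha11 lost their calls. Lost too were those of Pcdhb5, Pcdhb7, Pcdhb8, Pcdhb10, Pcdhb11 and Pcdhb16, of Pcdhga12, and of Pcdhgb5 and Pcdhgb6, the only gamma B calls. Differences between the subfamilies were not tested.

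Summed over its 14 members, the alpha cluster averaged 207 ± 50.5 TPM in erinacine S 48 h, 177 ± 7.02 TPM in DMSO 48 h, 109 ± 7.17 TPM in erinacine S 16 h and 104 ± 7.68 TPM in DMSO 16 h libraries (SD, n = 3 each). How reads of the constant exons were divided among the members enters such a sum only through the members' different lengths. The 48 h sum was 1.90 times the 16 h sum with erinacine S, or 1.64 times without erinacine S 48 h replicate 1, and 1.71 times in DMSO, so the order of the media turned on that library. For the 22 beta members the ratios were 1.45 with erinacine S, or 1.32 without that library, and 1.41 in DMSO. For the 21 gamma members they were 1.20, or 1.17 without that library, and 1.17 in DMSO. With erinacine S the alpha cluster took 19.9% ± 2.73 of the summed TPM of the family at 48 h, against 14.1% ± 0.568 at 16 h (SD, n = 3 each), and 18.3% and 18.5% in the other 2 libraries of 48 h without replicate 1. In DMSO its share was 19.2% ± 0.252 at 48 h, against 14.4% ± 0.842 at 16 h.

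**Figure D2:**
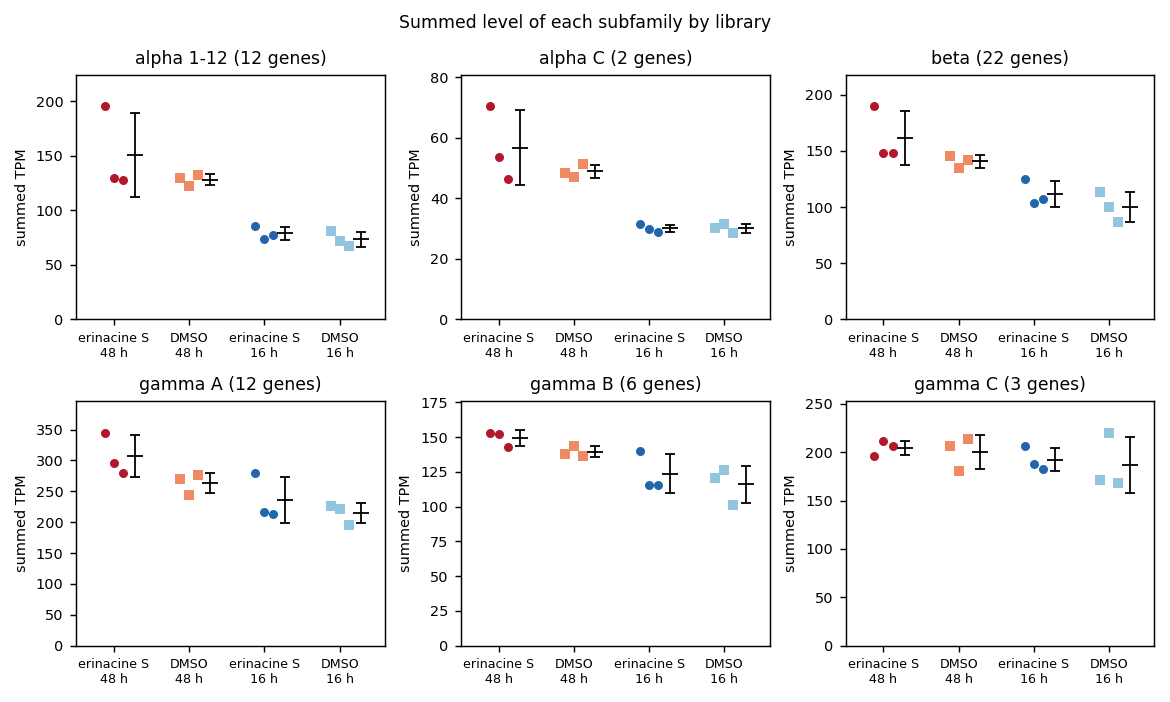
Summed TPM of the members of each subfamily in every library, with 1 point per library and the mean ± SD of each group of 3 beside the points; all axes start at 0. The alpha 1-12 and alpha C sums of all 6 libraries of 48 h lie above those of all 6 libraries of 16 h, the gamma C sums overlap, and erinacine S 48 h replicate 1, the first point of its group, is the highest of all 12 libraries in every panel but gamma C.

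Among the alpha members, Pcdha4 (ENSMUSG00000104252) had 22.9, 15.7 and 14.4 TPM in erinacine S 48 h replicates 1, 2 and 3, against 8.62, 7.43 and 7.94 TPM in erinacine S 16 h. In DMSO it had 15.4, 14.3 and 13.4 TPM at 48 h, against 7.65, 6.96 and 6.14 TPM at 16 h. All libraries of 48 h were above all of 16 h, and the highest was erinacine S 48 h replicate 1. Its log2 fold change was 1.03 ± 0.15 with erinacine S (SE; adjusted p = 0.000537), or 0.84 without that library (adjusted p = 0.000425), and 0.96 ± 0.15 in DMSO (adjusted p = 0.000692). Pcdha6 had the largest change of the family with erinacine S, with 24.0, 13.5 and 14.0 TPM at 48 h, against 7.74, 6.90 and 7.70 TPM at 16 h, a log2 fold change of 1.06 ± 0.18 (adjusted p = 0.00158). Without erinacine S 48 h replicate 1, it was 0.81 (adjusted p = 0.00125). Pcdha7 had the largest in DMSO, with 17.1, 16.0 and 12.9 TPM at 48 h, against 7.08, 8.36 and 5.91 TPM at 16 h, a log2 fold change of 1.01 ± 0.17 (adjusted p = 0.00111). In both genes the libraries of 48 h were apart from those of 16 h.

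Pcdha5, Pcdha10, Pcdha9 and Pcdha2 also rose, by 0.98, 0.82, 0.71 and 0.74 with erinacine S and by 0.79, 0.81, 0.69 and 0.64 in DMSO on the log2 scale. Without erinacine S 48 h replicate 1 the first 3 were 0.72, 0.72 and 0.63 and still passed, and Pcdha2 was 0.52 and did not (adjusted p = 0.071). Pcdha12 rose by 0.74 with erinacine S (adjusted p = 0.00964), or 0.54 without that library (adjusted p = 0.0294), and by 0.53 in DMSO (adjusted p = 0.0416). Pcdha3 and Pcdha11 rose with erinacine S by 0.69 and 0.53, or 0.44 and 0.41 without that library, where Pcdha11 did not pass (adjusted p = 0.146). In DMSO their values of 0.43 and 0.49 did not pass (adjusted p = 0.0768 and 0.061). Pcdha1, the member farthest from the constant exons, passed in neither medium, at 0.43 with erinacine S and 0.37 in DMSO (adjusted p = 0.131 and 0.186).

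The C-type members did not move together. Pcdhac2, which mouse serotonergic neurons need to space their axons apart, had 67.7, 51.5 and 44.2 TPM in erinacine S 48 h, against 28.6, 26.8 and 26.1 TPM in erinacine S 16 h. In DMSO it had 46.6, 45.4 and 49.1 TPM at 48 h, against 27.7, 28.9 and 26.3 TPM at 16 h. Every library of 48 h was thus above every library of 16 h. The log2 fold change was 0.96 ± 0.12 with erinacine S (adjusted p = 0.000237), or 0.79 without erinacine S 48 h replicate 1 (adjusted p = 0.000113), and 0.75 ± 0.12 in DMSO (adjusted p = 0.000871).

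Its neighbour Pcdhac1 had 2.60, 2.19 and 2.03 TPM in erinacine S 48 h, against 2.75, 3.11 and 2.76 TPM in erinacine S 16 h, all lower at 48 h. In DMSO it had 1.85, 1.63 and 2.25 TPM at 48 h, against 2.55, 2.70 and 2.06 TPM at 16 h, and the groups overlapped. Neither change passed, at -0.25 ± 0.13 with erinacine S (adjusted p = 0.18) and -0.24 ± 0.13 in DMSO (adjusted p = 0.187). It was the 1 member whose erinacine S libraries of 48 h lay below those of 16 h.

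In the gamma cluster, Pcdhgc4 (ENSMUSG00000023036), the isoform needed for the survival of neurons in newborn mice, had 47.2, 31.3 and 32.6 TPM in erinacine S 48 h, against 20.6, 16.8 and 17.8 TPM in erinacine S 16 h. In DMSO it had 26.4, 23.1 and 29.3 TPM at 48 h, against 16.5, 18.7 and 14.7 TPM at 16 h. The groups did not overlap in either medium. The log2 fold change was 0.95 ± 0.15 with erinacine S (adjusted p = 0.000953), or 0.77 without erinacine S 48 h replicate 1 (adjusted p = 0.00147), and 0.63 ± 0.15 in DMSO (adjusted p = 0.00838). Pcdhgc5, which binds GABA-A receptor subunits in rat neurons, rose by 0.43 ± 0.12 with erinacine S and by 0.43 ± 0.12 in DMSO (adjusted p = 0.0193 and 0.0183), at 3.37 to 5.84 TPM over the 12 libraries. Without erinacine S 48 h replicate 1 it was 0.39 with erinacine S (adjusted p = 0.0497). With each library left out in turn, its call was lost in 4 fits in DMSO and 1 with erinacine S.

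Pcdhgc3 had 143, 175 and 168 TPM in erinacine S 48 h, against 182, 168 and 161 TPM in erinacine S 16 h. In DMSO it had 174, 153 and 178 TPM at 48 h, against 151, 197 and 151 TPM at 16 h. The libraries of both times overlapped. Its log2 fold change was -0.07 ± 0.11 with erinacine S (95% interval -0.32 to 0.17) and 0.03 ± 0.11 in DMSO (95% interval -0.22 to 0.27), neither of which passed (adjusted p = 0.641 and 0.877). Pcdhgc3 took 15.9% ± 3.01 of the summed TPM of the family in erinacine S 48 h, or 17.7% in each of the other 2 libraries without replicate 1, against 22.1% ± 1.03 in erinacine S 16 h. In DMSO it took 18.3% ± 0.688 at 48 h, against 23.0% ± 2.59 at 16 h (SD, n = 3 each). The promoters of Pcdhac2, Pcdhgc4 and Pcdhgc5 are known to lack the conserved element that CTCF binds in most other promoters of the family, and that of Pcdhgc3 has it. Any link between this element and the changes with time was not tested.

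**Figure D3:**
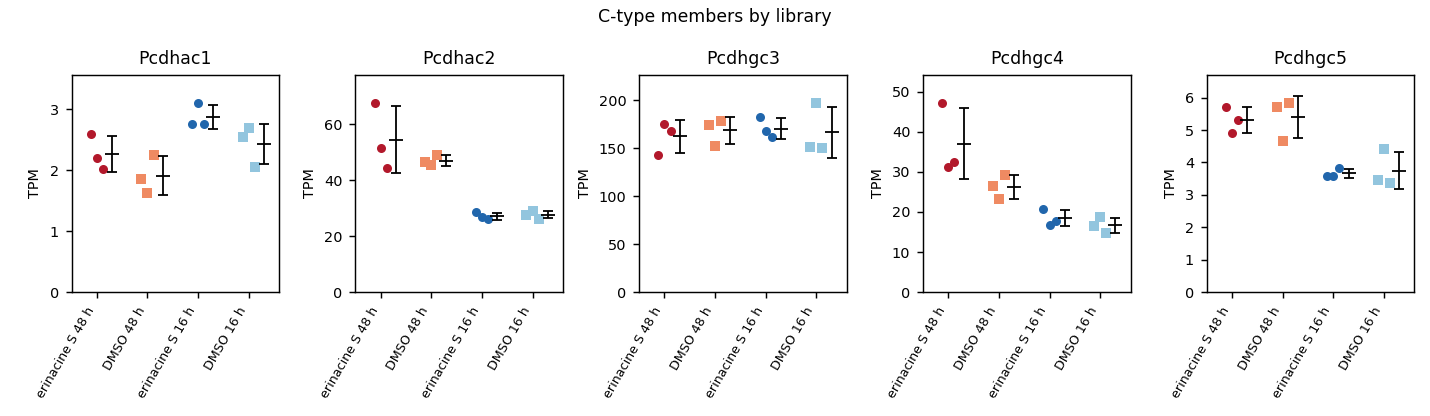
TPM of the 5 C-type members in every library, with 1 point per library, the mean ± SD of each group of 3 beside the points and axes that start at 0. Pcdhac2 and Pcdhgc4 are higher in all 6 libraries of 48 h than in all 6 of 16 h, Pcdhgc3 overlaps between the times and Pcdhac1 has its highest values at 16 h.

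Among the beta members, Pcdhb12 changed most with erinacine S, with 7.60, 5.83 and 4.89 TPM at 48 h, against 3.63, 3.08 and 3.08 TPM at 16 h, a log2 fold change of 0.72 ± 0.14 (adjusted p = 0.00289), or 0.58 without erinacine S 48 h replicate 1 (adjusted p = 0.00632). In DMSO it rose by 0.51 (adjusted p = 0.0156). Pcdhb18 changed most in DMSO, with 7.01, 6.06 and 6.79 TPM at 48 h, against 3.97, 4.03 and 2.98 TPM at 16 h. No library of 48 h overlapped those of 16 h in either gene, and the log2 fold change of Pcdhb18 was 0.57 ± 0.15 with erinacine S (adjusted p = 0.0146; 0.41 without that library) and 0.72 ± 0.15 in DMSO (adjusted p = 0.00408). The most abundant beta members each passed in 1 medium. Pcdhb7 rose by 0.40 with erinacine S (adjusted p = 0.0206), a call lost at 0.30 without that library (adjusted p = 0.0654), and its value of 0.27 in DMSO did not pass (adjusted p = 0.0877). Pcdhb17 did not pass with erinacine S at 0.35 (adjusted p = 0.119) and rose by 0.46 in DMSO (adjusted p = 0.0459). Whether members differ between the media is the question of the interaction given further on, which no member passed. Of Pcdhb2, Pcdhb4, Pcdhb6, Pcdhb13, Pcdhb14 and Pcdhb15, which passed in neither medium, all had positive log2 fold changes, of 0.11 to 0.45 with erinacine S and 0.19 to 0.45 in DMSO. By position in GENCODE M21, the exons of beta members other than Pcdhb21 and Pcdhb22 overlap those of no other member. Whether reads could align to more than 1 beta member was not tested.

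Among the gamma A and gamma B members, Pcdhga3, Pcdhga11, Pcdhga12 and Pcdhgb6 rose in both media. Pcdhga3 had 35.4, 36.0 and 35.3 TPM in erinacine S 48 h, against 30.9, 22.7 and 22.9 TPM in erinacine S 16 h, and 32.8, 32.2 and 36.2 TPM in DMSO 48 h, against 23.3, 25.7 and 19.7 TPM in DMSO 16 h. The groups were apart in both, with log2 fold changes of 0.48 ± 0.12 and 0.55 ± 0.12 (adjusted p = 0.0112 and 0.00528). Without erinacine S 48 h replicate 1, Pcdhga3 was 0.48 with erinacine S and passed (adjusted p = 0.0258). Pcdhga11 rose by 0.52 ± 0.12 with erinacine S and by 0.44 ± 0.12 in DMSO (adjusted p = 0.0081 and 0.0175), Pcdhgb6 by 0.31 ± 0.09 in both (adjusted p = 0.0195 and 0.0186), and Pcdhga12 by 0.42 with erinacine S and 0.41 in DMSO. Without erinacine S 48 h replicate 1, Pcdhga11 was 0.38 and passed, and Pcdhgb6 at 0.24 and Pcdhga12 at 0.29 did not (adjusted p = 0.066 and 0.0622). Pcdhga10 had 20.8, 15.1 and 12.8 TPM in erinacine S 48 h, against 9.77, 8.24 and 8.82 TPM in erinacine S 16 h, without overlap. Its log2 fold change was 0.77 ± 0.17 with erinacine S (adjusted p = 0.00641), or 0.58 without that library (adjusted p = 0.0187), and in DMSO, at 0.41, it did not pass (adjusted p = 0.0916). Pcdhgb1, the next most abundant gamma B member, did not pass, at 0.35 with erinacine S and 0.44 in DMSO (adjusted p = 0.115 and 0.0539).

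A run of neighbours in the gamma cluster, Pcdhga4, Pcdhgb2, Pcdhga5, Pcdhga6, Pcdhga7, Pcdhgb4 and Pcdhga8, held no member that passed in either medium, with log2 fold changes of -0.13 to 0.26 with erinacine S and -0.09 to 0.21 in DMSO. Pcdhga8 had 10.7, 8.21 and 11.5 TPM in DMSO 48 h, against 13.5, 8.99 and 10.2 TPM in DMSO 16 h, and the groups overlapped. Pcdhgb4 had 17.8, 19.2 and 17.4 TPM in DMSO 48 h, against 23.2, 19.0 and 14.7 TPM in DMSO 16 h, also overlapping. This stretch was noticed in the values and was not tested as a group.

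**Figure D4:**
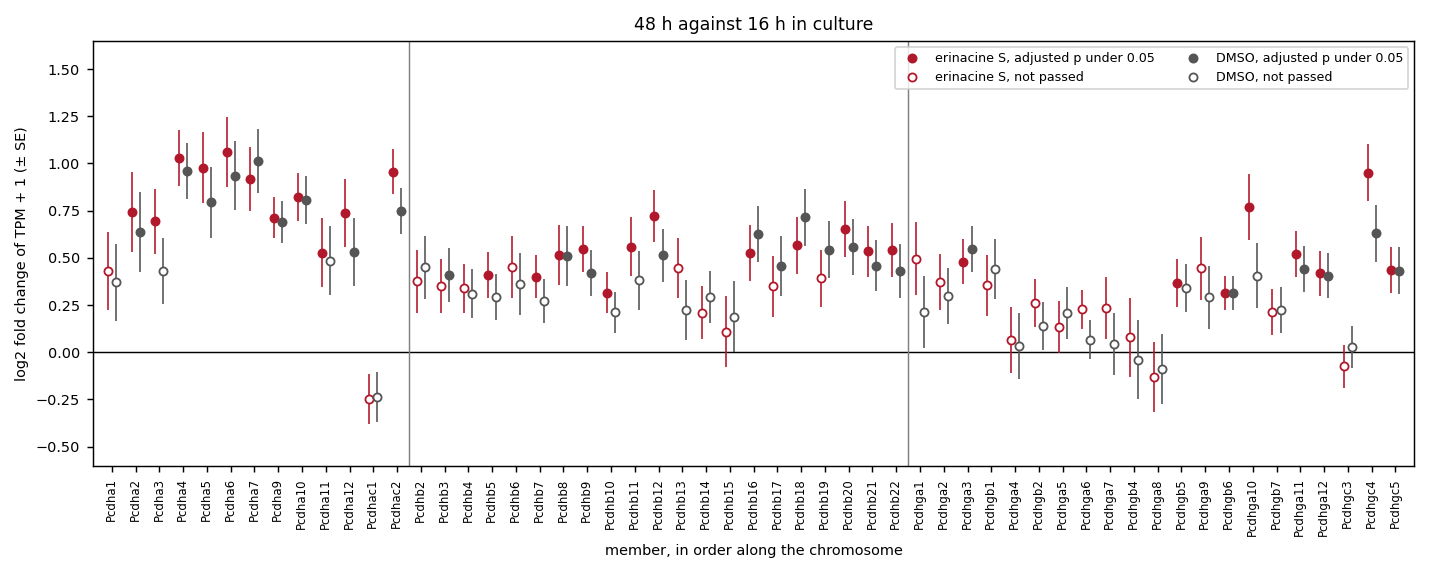
Log2 fold change of TPM + 1 between 48 h and 16 h for each of the 55 members tested, in chromosome order, with erinacine S left of DMSO, bars for the SE and filled points for adjusted p under 0.05. Pcdha4 to Pcdha7 lie between 0.79 and 1.06, the beta members between 0.11 and 0.72, the members from Pcdhga4 to Pcdhga8 between -0.13 and 0.26, and Pcdhac1 below 0 in both media.

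The calls in both media overlapped. Of the members that rose, 23 rose in both, which is 74.2% of the 31 with erinacine S and 88.5% of the 26 in DMSO. Pcdha3, Pcdha11, Pcdhb5, Pcdhb7, Pcdhb10, Pcdhb11, Pcdhga10 and Pcdhgb5 passed with erinacine S and not in DMSO, and Pcdhb3, Pcdhb17 and Pcdhb19 in DMSO and not with erinacine S. Across the 55 members the log2 fold changes in both media had a Pearson's r of 0.904 and a Spearman's rho of 0.852, a description over genes that share constant exons and are not independent replicates. Whichever library was left out, 16 members kept their call with erinacine S and 12 in DMSO. These 12 were Pcdha4, Pcdha5, Pcdha6, Pcdha7, Pcdha9, Pcdha10, Pcdhac2, Pcdhb16, Pcdhb18, Pcdhb20, Pcdhga3 and Pcdhgc4. The counts moved with single libraries: with erinacine S, 16 members passed without erinacine S 16 h replicate 2 and 20 without erinacine S 48 h replicate 1. The 11 calls lost without the second of these were those of Pcdha2, Pcdha11, Pcdhb5, Pcdhb7, Pcdhb8, Pcdhb10, Pcdhb11, Pcdhb16, Pcdhga12, Pcdhgb5 and Pcdhgb6, with adjusted p of 0.0576 to 0.146. In DMSO, 12 passed without DMSO 16 h replicate 3, 14 without DMSO 48 h replicate 1 and 15 without DMSO 48 h replicate 3.

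Some cell type markers moved with time as well. Over the whole table, 15.1% of genes were higher and 15.5% lower with erinacine S, and 16.1% higher and 16.6% lower in DMSO. With erinacine S, 7 of the 8 neuronal markers were higher at 48 h, with a median log2 fold change of 0.43, and in DMSO 6 were, with a median of 0.41. None of them was lower. Of the 6 oligodendrocyte lineage markers, 3 were higher with erinacine S and 5 in DMSO, where they summed to between 187 and 220 TPM at 48 h, against between 53.5 and 102 TPM at 16 h. Of the 6 astrocyte markers tested, none was called with erinacine S, with a median of 0.21, and 1 was higher in DMSO, with a median of 0.71. Astrocyte sums were 49.3, 130 and 132 TPM in erinacine S 48 h replicates 1, 2 and 3, against 56.4 to 72.2 TPM in erinacine S 16 h. In DMSO they were 109 to 125 TPM at 48 h, against 54.4 to 72.5 TPM at 16 h. Of the 8 radial glia and progenitor markers, 3 were lower with erinacine S, and 2 were higher and 1 lower in DMSO. Their sums were 244, 764 and 794 TPM in erinacine S 48 h replicates 1, 2 and 3, against 430 to 525 TPM in erinacine S 16 h. In DMSO they were 719 to 767 TPM at 48 h, against 462 to 566 TPM at 16 h. Of the 8 markers of dividing cells, 2 were lower with erinacine S and none was called in DMSO. Their sums were 145, 267 and 269 TPM in erinacine S 48 h replicates 1, 2 and 3, against 267 to 286 TPM in erinacine S 16 h. These counts and medians with erinacine S include replicate 1. Of the 6 microglial markers tested, 4 were lower with erinacine S and 1 in DMSO. They summed to between 1.60 and 13.3 TPM in erinacine S 48 h, against between 27.7 and 45.9 TPM in erinacine S 16 h. The 1 astrocyte and the 1 microglial call in DMSO, 16.7% of each list, were near the shares of all genes. The part of these cell types in the rise of the protocadherins was not tested. In erinacine S 48 h replicate 1 the summed astrocyte and oligodendrocyte lineage markers were within the range of the 16 h libraries or below it. Single markers were above that range, with Slc1a2 at 13.1 TPM, Pdgfra at 8.56 TPM and Cspg4 at 1.61 TPM. Its neuronal marker sum, 6905 TPM, was the highest of all 12 libraries, although its Tubb3, at 2557 TPM, was the lowest of 48 h. Its alpha, beta and gamma sums were the highest of all 12 libraries as well. The part of any of these markers in those sums was not tested.

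Genes that act with the family gave a mixed picture. Of 18 genes that regulate the clusters, among them CTCF, the cohesin subunits, the factors that load or release cohesin, DNA methyltransferases and repressors such as Setdb1, none was higher at 48 h and 2 were lower in each medium, or 11.1% of the list, against 15.5% of all genes lower with erinacine S and 16.6% in DMSO. With erinacine S these were the cohesin subunit Smc1a (-0.27, adjusted p = 0.0255) and Wapl, which releases cohesin from DNA (-0.23, adjusted p = 0.0383). In DMSO they were Ctcf, with 102 ± 2.19 TPM at 48 h against 123 ± 9.10 TPM at 16 h (SD, n = 3 each; log2 fold change -0.26 ± 0.08, adjusted p = 0.0315), and the cohesin subunit Smc3 (-0.25, adjusted p = 0.0408). Of 19 binding and signalling partners, 7 were higher and 2 lower with erinacine S, and 7 were higher and none lower in DMSO. Over the whole table, 15.1% of genes were higher with erinacine S and 16.1% in DMSO. Adam10, the protease that sheds the extracellular part of protocadherins, rose by 0.38 with erinacine S (adjusted p = 0.00444). The list holds 9 genes of the WAVE complex, which links the cytoplasmic tails of protocadherins to actin, and these did not move one way. With erinacine S, 4 were higher and 1 lower, and in DMSO 4 were higher and none lower. Wasf1 rose by 0.45 with erinacine S and 0.44 in DMSO, and Nckap1 by 0.37 and 0.41. Wasf2 was lower with erinacine S at -0.51 (adjusted p = 0.0113), and in DMSO its -0.28 did not pass (adjusted p = 0.116).

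Related adhesion genes outside the clusters included larger single changes. Of 10 non-clustered protocadherins tested, 5 were higher and none lower at 48 h with erinacine S, and 6 were higher and 1 lower in DMSO. Over the whole table, 15.1% of genes were higher and 15.5% lower with erinacine S, and 16.1% higher and 16.6% lower in DMSO. Pcdh7 rose by 1.29 ± 0.12 with erinacine S. In DMSO it had 39.6 ± 5.13 TPM at 48 h, against 11.4 ± 0.689 TPM at 16 h (SD, n = 3 each). Its log2 fold change there was 1.71 ± 0.12 (adjusted p = 8.15e-06), a larger value than that of any clustered member. Of 14 classical cadherins tested, 7 were higher and 1 lower in each medium, and Cdh11 rose by 0.77 with erinacine S and 0.78 in DMSO.

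The second comparison asked whether erinacine S changed the family. At 48 h none of the 55 members passed, where 0.134% of all genes were called, 0.0192% higher and 0.115% lower, and 5 members had an unadjusted p under 0.05 (limma, two-sided). The values leaned to one side: 51 of the 55 log2 fold changes were positive, against 52.5% of all genes tested, with a median of 0.17 against 0.01. In 9 members, against 10.5% of all genes, the 3 erinacine S libraries lay above the 3 DMSO libraries, and in none below, against 8.74% of all genes (19.3% either way). These were Pcdhb7, Pcdhb9, Pcdhb11, Pcdhb12, Pcdhb20, Pcdhga1, Pcdhga2, Pcdhga6 and Pcdhgc4. The libraries differed in this lean. In erinacine S 48 h replicate 1, 52 members were above the DMSO 48 h mean, with a median difference of 0.37 on the log2 scale, against 42 members and 0.11 in replicate 2 and 39 members and 0.03 in replicate 3. Without replicate 1, 40 of the 55 were positive, with a median of 0.07.

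The members with the smallest p at 48 h were Pcdhgc4, Pcdhga6, Pcdhb12, Pcdhb7 and Pcdhga10. Pcdhgc4 had 47.2, 31.3 and 32.6 TPM with erinacine S, against 26.4, 23.1 and 29.3 TPM in DMSO. The groups did not overlap, with a log2 fold change of 0.46 ± 0.15 (95% interval 0.13 to 0.79, adjusted p = 0.365), or 0.28 without erinacine S 48 h replicate 1 (adjusted p = 0.537). Pcdhga6 had 21.3, 18.5 and 18.6 TPM with erinacine S, against 16.5, 14.8 and 16.7 TPM in DMSO, a log2 fold change of 0.27 ± 0.10 (adjusted p = 0.48). Pcdhb12 had a log2 fold change of 0.36, Pcdhb7 of 0.28 and Pcdhga10 of 0.40, with adjusted p of 0.485, 0.501 and 0.526. Without erinacine S 48 h replicate 1, Pcdhga6 was 0.20, Pcdhb12 0.21, Pcdhb7 0.18 and Pcdhga10 0.22. In Pcdhga6, Pcdhb12 and Pcdhb7 the erinacine S libraries all lay above the DMSO libraries, and in Pcdhga10 they overlapped.

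Summed over the cluster, the alpha members had 265, 183 and 174 TPM in erinacine S 48 h replicates 1, 2 and 3, against 178, 169.7 and 184 TPM in DMSO 48 h. Replicate 1 was above all DMSO libraries and the other 2 were within their range. The beta members summed to 189.5, 148 and 148 TPM with erinacine S, against 146, 135 and 142 TPM in DMSO. The gamma members summed to 694, 659.9 and 629 TPM with erinacine S, against 614, 569 and 626 TPM in DMSO. For both the beta and the gamma members, every erinacine S library was thus above every DMSO library. These sums were not tested. Microglial markers summed to 1.60, 10.3 and 13.3 TPM with erinacine S, against 31.4, 28.1 and 22.3 TPM in DMSO, without overlap, and 1 of the 6 tested was called lower. The oligodendrocyte lineage sums of 54.2, 165 and 177 TPM with erinacine S also lay below those of 187 to 220 TPM in DMSO, with 5 of the 6 markers apart. The dividing cell sums of 145, 267 and 269 TPM lay below those of 275 to 288 TPM in DMSO, with all 8 markers negative and 2 apart. All 6 astrocyte and all 8 radial glia and progenitor markers were negative too, and of these 4 lists no marker was called. The astrocyte sums were 49.3, 130 and 132 TPM with erinacine S, against 109 to 125 TPM in DMSO. The radial glia and progenitor sums were 244, 764 and 794 TPM, against 719 to 767 TPM. In both lists only replicate 1 lay below the DMSO libraries. Over the whole table, 8.74% of genes lay apart below DMSO and 0.115% were called lower. The part of these markers in the lean was not tested.

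At 16 h none of the 55 members passed and none had an unadjusted p under 0.05 (limma), where 0% of all genes were called. Here 50 of the 55 log2 fold changes were positive, against 53.7% of all genes, with a median of 0.11 against 0.01. In 3 members, Pcdhac1, Pcdhb6 and Pcdhb10, all erinacine S libraries lay above all DMSO libraries, against 2.62% of all genes, and in none below, against 1.56% (4.19% either way). In erinacine S 16 h replicate 1, 50 members were above the DMSO 16 h mean, against 35 in replicate 2 and 35 in replicate 3, and in DMSO 16 h replicate 3 only 5 were. Without erinacine S 16 h replicate 1, 35 members were positive, with a median of 0.04, and without DMSO 16 h replicate 3, 37 were, with a median of 0.06. The smallest p belonged to Pcdhga5, with 15.7, 12.2 and 11.8 TPM with erinacine S, against 12.2, 10.9 and 9.90 TPM in DMSO, overlapping groups with a log2 fold change of 0.24 ± 0.14. The next were Pcdha2 at 0.36, Pcdhgb5 at 0.20, Pcdhb15 at 0.30 and Pcdhb18 at 0.22, with adjusted p of 1 when rounded for all 5.

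The most abundant member, Pcdhgc3, had a log2 fold change between erinacine S and DMSO of -0.06 ± 0.11 at 48 h (95% interval -0.30 to 0.19) and 0.04 ± 0.11 at 16 h (95% interval -0.20 to 0.29). For Pcdhac2 the values were 0.19 ± 0.12 at 48 h and -0.02 ± 0.12 at 16 h, and for Pcdhgc5 -0.02 ± 0.12 at both times. For the other abundant members of the subfamilies, Pcdha5, Pcdha12, Pcdhb17, Pcdhga11, Pcdhga12, Pcdhgb6 and Pcdhgb1, the values ran between -0.06 and 0.24 at 48 h and between 0.01 and 0.16 at 16 h. A p that misses the threshold does not show that levels were alike. The 95% intervals give the sizes left possible: the highest upper bound over the 55 members was 0.93 at 48 h and 0.82 at 16 h, both for Pcdha2. Set against what a doubling of its DMSO mean would give on the log2(TPM + 1) scale, the upper bound was lower for 54 of the 55 members at 48 h, the exception being Pcdha2, and for all 55 at 16 h.

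**Figure D5:**
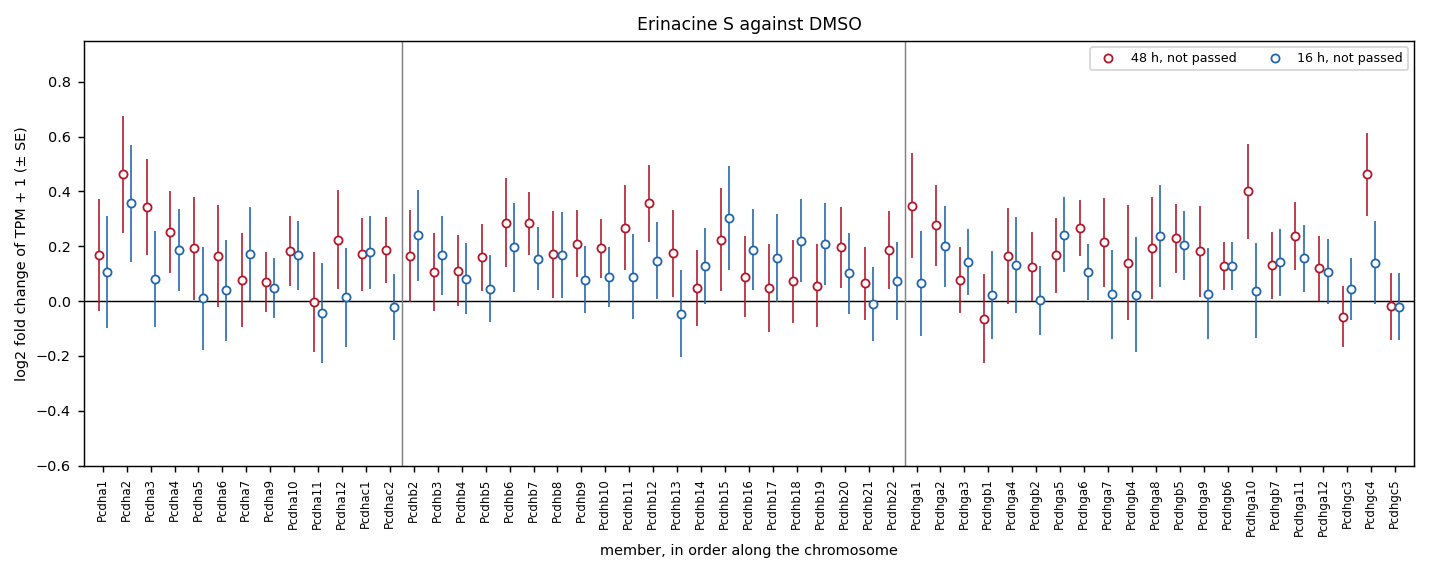
Log2 fold change of TPM + 1 between erinacine S and DMSO for each of the 55 members tested, in chromosome order, at 48 h (left point of each pair) and 16 h (right point), with bars for the SE. No member passed at either time, which open points mark; the values run between -0.06 and 0.46 at 48 h and between -0.05 and 0.36 at 16 h, most of them above 0.

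The third comparison asked whether the effect of erinacine S differed between 48 h and 16 h. No member passed and none had an unadjusted p under 0.05 (limma, interaction term), where 0% of all genes were called. The median difference of the effects was 0.07, with 39 of the 55 positive, against 49.9% of all genes, and -0.05, with 20 of the 55 positive, without erinacine S 48 h replicate 1. The smallest p belonged to Pcdhgc4 (0.32 ± 0.21), Pcdhga10 (0.36 ± 0.25), Pcdhac2 (0.21 ± 0.17), Pcdhga6 (0.16 ± 0.15) and Pcdha3 (0.26 ± 0.25). None of the cluster regulators, partners, non-clustered protocadherins or classical cadherins passed between erinacine S and DMSO at either time.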

How the data were processed

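RNA of the 12 samples was made into strand-specific libraries, per the labels' protocols. The submitters' processing notes name HISAT2, SAMtools and StringTie (2.1.3) for GRCm38.p5, after bcl2fastq (2.20), FastQC and Trimmomatic (0.36). The table deposited by the authors gives TPM per gene, and 0.0001 stands for 0. Neither strand setting nor annotation release is given in the sources used here. Groups come from the sample titles. The test was limma (3.58.1; R 4.3.3) on log2(TPM + 1), with trended eBayes and 1 mean per group over all 12 libraries, for the 15623 genes whose mean reached 1 TPM, two-sided, with Benjamini-Hochberg adjustment and a threshold of 0.05; the method was tested on simulated data. Fold changes on this scale understate those of low genes. Named were, per comparison, up to 10 members that passed with groups apart, or else the 5 with the smallest p, the C-type members and the 2 most abundant members of the other subfamilies; Pcdhga3, Pcdhga4 to Pcdhga8 and other members listed beyond these were chosen after their values were seen. Members and gene lists were chosen with earlier results of these data known. Within groups, log2 values correlated at 0.980 to 0.995 across genes. At 16 h the deviations of same-numbered erinacine S and DMSO libraries correlated at 0.480, 0.185 and 0.510 over all genes, each over 0.1. Differently numbered libraries gave -0.448 to 0.109. Over the members alone, the same-numbered values were 0.272, 0.0918 and 0.122, and erinacine S replicate 3 with DMSO replicate 2 also gave 0.122. A pairing by number at 16 h is thus read from the data, not from the labels, and is not certain. The main test has no replicate block. Alternatives were other pseudocounts, filters and scaling, a replicate block, fits of only the libraries compared and leaving out each library. GENCODE M21, in which all 57 members have the deposited coordinates, gave the exons, and RefSeq gave the name of 1 member.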

Additional observations from a re-analysis of the deposited data

How the results depend on the processing

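The direction of every median over the members held under the other pseudocounts, filters, scaling and blocks; without erinacine S 48 h replicate 1 that of the interaction was -0.05. The median between 48 h and 16 h in DMSO was 0.26 with a pseudocount of 5, against 0.41 with a pseudocount of 1. Counts of members called between 48 h and 16 h ran, without each library in turn, between 16 and 36 with erinacine S and between 12 and 24 in DMSO, and under the other settings between 23 and 33 with erinacine S and between 19 and 30 in DMSO. With the replicate block over both times, 32 members passed with erinacine S and 30 in DMSO, and 0 between erinacine S and DMSO at 48 h, at 16 h and in the interaction, as also with a block within each time; the block moved no count of members by over 1.5 times. At 48 h the same-numbered libraries correlated at -0.0219, 0.107 and -0.192, so no pairing by number was read from the data there. The labels do not say what the numbers stand for, so whether these libraries were paired is not known. Over the whole table, the 21 genes called between erinacine S and DMSO at 48 h were 114 without erinacine S 48 h replicate 1, 13 without replicate 2 or 3, 9 or 10 without a DMSO 48 h library, 13 with the replicate block and 12 with only the libraries compared. Between 48 h and 16 h, the 4783 genes called with erinacine S were 3110 without erinacine S 16 h replicate 2, and the 5107 in DMSO were 3401 without DMSO 48 h replicate 1.

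No member whose call passed changed its direction. Among members that did not pass, the interaction of Pcdhac1 was 0.0053 and that of Pcdhgb6 -0.00021 with a pseudocount of 0.1, and that of Pcdhgc5 was -0.00031 with a pseudocount of 5 and -0.00032 with median-ratio scaling. Without each library in turn, the erinacine S effect at 48 h ran between -0.13 and 0.029 for Pcdhgc3, -0.11 and 0.031 for Pcdhgc5, -0.061 and 0.34 for Pcdha5, -0.059 and 0.13 for Pcdhb17, -0.013 and 0.22 for Pcdhga12 and -0.20 and 0.13 for Pcdhgb1. At 16 h it ran between -0.059 and 0.0087 for Pcdhac2, -0.020 and 0.17 for Pcdhgc3, -0.078 and 0.078 for Pcdhgc5, -0.11 and 0.10 for Pcdha5, -0.10 and 0.17 for Pcdha12 and -0.088 and 0.14 for Pcdhgb1. The interaction ran between -0.078 and 0.076 for Pcdhac1, -0.10 and 0.058 for Pcdhgc5, -0.071 and 0.33 for Pcdha5, -0.23 and 0.044 for Pcdhb17, -0.061 and 0.19 for Pcdhga11, -0.12 and 0.11 for Pcdhga12, -0.070 and 0.061 for Pcdhgb6 and -0.23 and 0.11 for Pcdhgb1. Pcdhgc3 between 48 h and 16 h ran between -0.13 and 0.011 with erinacine S and between -0.039 and 0.15 in DMSO. The cause of these changes was not tested. TPM keep no depth, so the counting error of low members such as Pcdha8 is unknown.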

Other observations

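Other genes of the interval that were tested had no higher call at 48 h in either medium. Taf7, a subunit of the transcription factor TFIID that lies between the beta and gamma clusters, had a log2 fold change between 48 h and 16 h of -0.05 ± 0.07 with erinacine S and 0.06 ± 0.07 in DMSO (adjusted p = 0.651 and 0.555). Pcdhgb8, the pseudogene inside the gamma cluster, had -0.17 with erinacine S and 0.21 in DMSO (adjusted p = 0.699 and 0.618). Gm10544, annotated on the minus strand inside the alpha cluster, did not pass with erinacine S (-0.43 ± 0.27, adjusted p = 0.25) and was lower at 48 h in DMSO, with a mean of 1.51 TPM against 3.39 TPM at 16 h (log2 fold change -0.78 ± 0.27, adjusted p = 0.0444). Since the strand setting of the counting is not given, any reads it shares with overlapping alpha introns or exons cannot be told apart. The models Gm42416, Gm37013 and Gm37388, annotated from the alpha into the gamma cluster, are listed at 0 in every library.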
